A study of Mus musculus with 6 samples.

Results

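The core autophagy machinery is the set of proteins that builds the autophagosome, the double membrane that closes around cytoplasm and delivers it to the lysosome. It was taken here as 37 listed genes, each matched by its symbol to 1 row among the 22183 genes of a kidney expression table. Messenger RNA came from kidneys of mice treated with the Wnt1 plasmid, labelled as overexpressing Wnt1, a ligand that signals through beta-catenin, and of control mice treated with the empty vector pcDNA3, with 3 libraries in each group. The sources used here do not give strain, sex, age, any injury procedure, the time since transfection or which cells took up the plasmid. The labels also leave unsaid whether the libraries stand for different mice, so the p-values rest on spread between libraries that may be technical. The series title concerns mitophagy in the progression of kidney injury to chronic disease, and the comparison of the Wnt1 plasmid with the empty vector is the one that the labels define.

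Autophagosome formation starts when the ULK kinase complex, held back by the kinase mTOR in fed cells, is released. The class III PI3-kinase then marks the new membrane with the lipid PI3P, ATG9 vesicles and ATG2 supply membrane lipid, and a pair of ubiquitin-like conjugation systems attaches proteins of the ATG8 family (LC3 and GABARAP) to it. ATG8 proteins bind cargo receptors and factors for fusion with the lysosome. In the kidney, loss of Atg5 or Atg7 from the proximal tubule of mice is known to worsen acute injury.

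Total counts ran from 23585020 to 27218085 in the Wnt1 libraries and from 24753193 to 26072435 in the control libraries. Wnt1 itself had 0, 1 and 0 reads in Wnt1 replicates 1, 2 and 3, against 0 in each control library, so the Wnt1 counts give no check of the labels. Kidney tubule markers were well detected: the summed level of 10 proximal tubule markers was 5505 to 8723 CPM (counts scaled to a common library size, with TMM factors) in Wnt1 libraries and 32330 to 39590 CPM in control libraries, 9 of 10 being called lower. The summed level of 9 macrophage markers was 1754 to 2126 CPM in Wnt1 libraries and 219 to 267 CPM in control libraries, all 9 being called higher, and none of the markers on either list was at 0 throughout. With TMM, markers of the thick ascending limb and distal tubule (5 of 8), collecting duct (3 of 9) and endothelium (3 of 7) were called lower and none higher. Of 6 podocyte markers 3 were lower and 1 higher. On this scale 18.7% of all tested genes were lower and 22.4% higher. With library totals, without TMM factors, these lists in the same order had 3, 3, 1 and 1 lower. They had 1, 1, 0 and 2 higher, beside 8.92% lower and 44.0% higher of all tested genes. All tested markers of fibroblasts (7), T cells (7), neutrophils (4 of 6 listed) and injured tubules (5) were called higher on both scales. Library totals also called 9 proximal tubule markers lower and all 9 macrophage markers higher. These shifts moved with every difference below, and their part in the autophagy results was not tested. In bulk kidney RNA, fewer cells of a type and less RNA per cell cannot be told apart. Replicate 3 of each group stood apart from the other libraries on the second principal component, with scores of -50.1 in Wnt1 and -29.0 in control against 16.2 to 22.1 in the other 4, and results that rest on these libraries are given with and without them.

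On the TMM scale, whose factors are meant to adjust library totals for composition, autophagy transcripts were mostly lower with the Wnt1 plasmid. The factors ran from 1.118 to 1.195 in Wnt1 libraries and from 0.8485 to 0.8789 in control libraries, so the scaling itself differs between the groups. Which scale is nearer the truth was not tested. Of the 37 genes, all of which passed the filter on low counts, 16 fell and 1 rose at an adjusted p under 0.05 by edgeR's quasi-likelihood test. With 1 library left out, 7 fell without control replicate 1 or 2, 8 without Wnt1 replicate 2, 9 without control replicate 3, 10 without Wnt1 replicate 1 and 21 without Wnt1 replicate 3. The background also moved in these fits: 1912 of 14689 tested genes were called lower without control replicate 1 and 1797 of 14686 without control replicate 2. Calls among all genes differed between the other fits too, and the closing section gives their range. The counts of autophagy genes are therefore not compared between fits. With all libraries the background on this scale was 18.7% of 14432 tested genes called lower and 22.4% called higher. The one that rose was Atg16l2, and the largest fall was that of Gabarapl1, an ATG8-family gene and the only one of the 17 to change at least 2-fold. At an unadjusted p under 0.05, 19 genes were lower and 3 higher, the further higher ones being Vmp1 and Atg9b, both in the lipid supply group, against 22.8% of all tested genes lower and 26.3% higher at that level. DESeq2 called 16 lower and 0 higher, against 20.7% and 22.3% of all genes, and at an unadjusted p under 0.05 it had 20 lower and 1 higher, against 23.6% and 25.4%. The median log2 fold change (Wnt1 over control) was -0.37 over the 37 genes and 0.05 over all tested genes. The groups did not overlap for 25 genes, 22 lower and 3 higher with Wnt1, where 53.5% of all tested genes did not overlap. One of the 3 is Atg9b, which passed the filter through the Wnt1 libraries alone.

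Most of these calls were not made with library totals. With library totals and no factor for composition, the median of all tested genes moved to 0.47 and that of the autophagy genes to 0.06, and 3 autophagy genes were called lower and 5 higher, against a background of 8.92% lower and 44.0% higher. The groups then did not overlap for 14 genes, 6 lower and 8 higher, where the background was 61.9%. Becn1, Atg2b and Atg16l1 were among these 8, although they had been lower without overlap on the TMM scale. Atg9b, which passed the filter through the Wnt1 libraries alone, was also among these 8 and among the 5 called higher. Relative to the median of all tested genes, 33 of the 37 lay below it on either scale, and the median of the 37 lay 0.42 below it on either scale. The change of scale moves every gene by nearly the same amount (relative values differed by at most 0.01), so this agreement was fixed in advance. On the authors' FPKM values, limma put the difference of medians at -0.315 with log2(FPKM + 1), -0.358 with log2(FPKM + 0.1) and -0.172 with log2(FPKM + 1) and no filter. The 3 genes called lower on both scales were Gabarapl1, Wipi2 and Atg13, and Atg16l2 was called higher on both. Pik3c3, Pik3r4, Atg12 and Epg5, which fell on the TMM scale, had log2 fold changes between 0.00 and 0.04 with library totals.

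**Figure D1:**
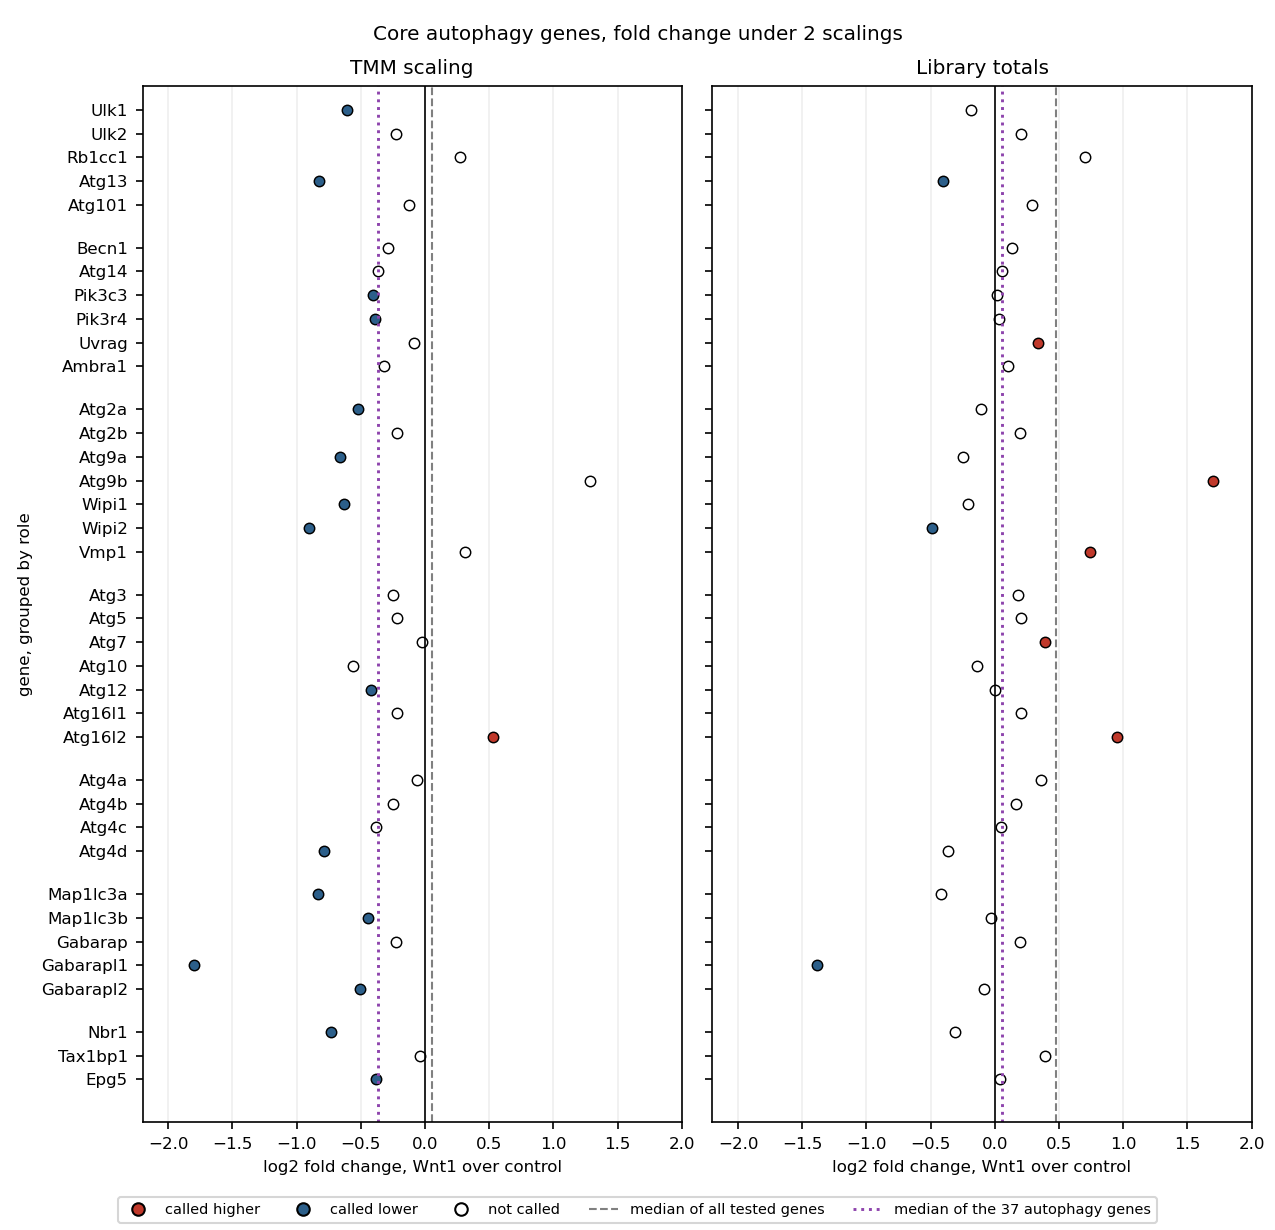
Log2 fold change of Wnt1 over control for each of the 37 genes, grouped by role, with TMM scaling (left) and library totals (right); filled points passed an edgeR adjusted p of 0.05, the dashed line is the median of all tested genes and the dotted line that of the 37. The pattern of points is the same in both panels and shifts to the right with library totals, where 3 genes are called lower and 5 higher, against 16 and 1 with TMM.

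Replicate 3 of each group added spread that fell unevenly on the genes. Relative to the mean of replicates 1 and 2, its level ran from -1.73 to 0.48 on the log2 scale across the 37 genes in Wnt1 and from -1.47 to 0.26 in control. The lowest were Rb1cc1 and Tax1bp1, whose transcripts have a GC content of 39.1% and 42.2%, and the highest was Map1lc3a, at 63.1%. Atg4b, at 50.8%, was level with Map1lc3a in Wnt1 (0.48). Gabarapl2, at 45.3%, was at 0.42 in Wnt1 and 0.23 in control. Across the 37 genes this difference and transcript GC content had a Spearman correlation of 0.81 in Wnt1 and 0.53 in control, which describes genes within a few shared libraries. Without replicate 3 of either group 24 genes were called lower on the TMM scale, among them the same 16, and 3 higher, with Vmp1 and Rb1cc1 beside Atg16l2. The background was then 30.4% lower and 32.0% higher. With library totals and without both libraries, 10 were called lower and 11 higher against 13.0% and 57.1%. With an offset for GC content, 30 were called lower and 1 higher against 35.6% and 22.7%.

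**Figure D2:**
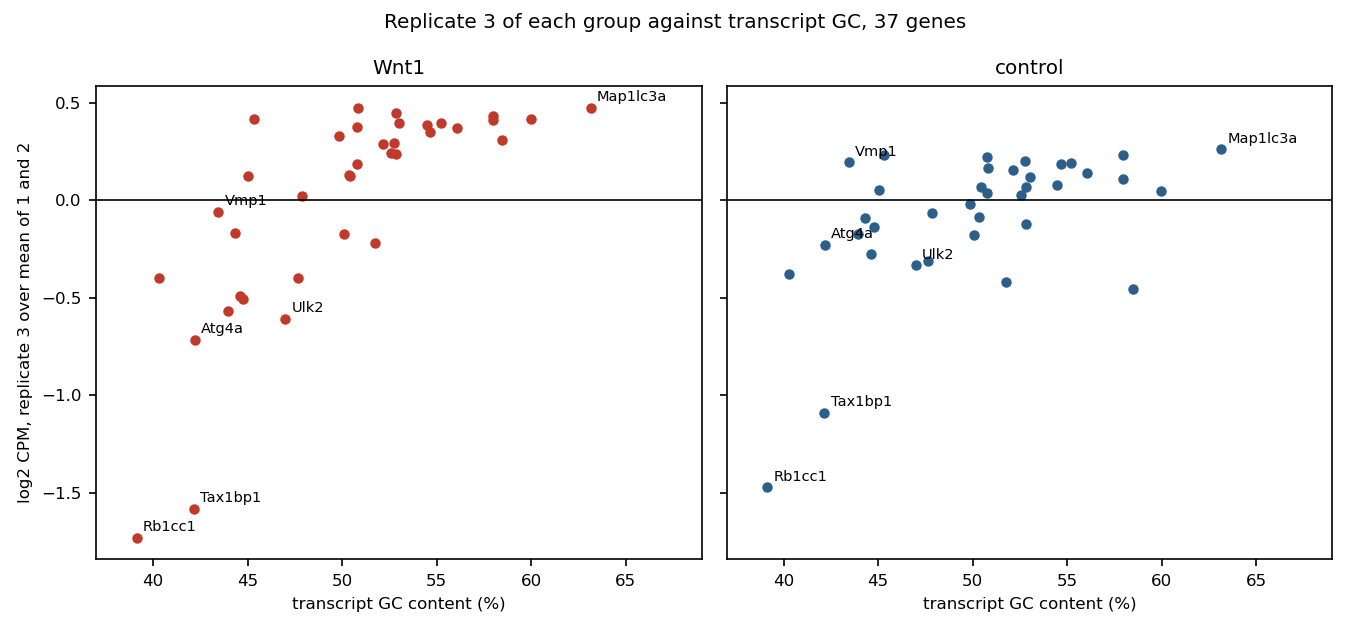
Log2 ratio of replicate 3 to the mean of replicates 1 and 2 against transcript GC content for the 37 genes, Wnt1 left and control right, each point 1 gene. Rb1cc1 and Tax1bp1, both of low GC content, lie far below 0 in both groups, Rb1cc1 at -1.73 in Wnt1 and -1.47 in control.

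Within the ULK complex 2 of 5 genes fell on the TMM scale and none rose, beside backgrounds of 18.7% and 22.4%. With library totals 1 was called lower and 0 higher, beside backgrounds of 8.92% and 44.0%. Atg13 (chromosome 2, 91674618 to 91710576, GRCm38), the adaptor that binds the kinase to its scaffold, was measured at 35.0, 37.4 and 49.4 CPM in Wnt1 libraries and at 73.9, 67.3 and 74.0 CPM in control libraries. No Wnt1 library reached the lowest control library, the log2 fold change (Wnt1 over control, here and in the brackets that follow, ± SE) was -0.82 ± 0.16 (edgeR adjusted p = 0.00447), and with library totals Atg13 was still called lower at -0.41 (adjusted p = 0.0456). Ulk1, the kinase that opens the pathway, stood at 66.1, 62.2 and 86.6 CPM in Wnt1 and at 109, 103 and 114.5 CPM in control. Its groups did not overlap on the TMM scale and it fell by 0.60 ± 0.15 on the log2 scale (adjusted p = 0.0155), a call lost with library totals (-0.19, adjusted p = 0.26) and without Wnt1 replicate 1 (0.059) or 2 (0.0528). Its paralog Ulk2 was not called (-0.22 ± 0.20; adjusted p = 0.403), nor was Atg101, which stabilises Atg13 (-0.13 ± 0.18; adjusted p = 0.596).

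Rb1cc1, which encodes the scaffold FIP200, showed the spread from replicate 3 most clearly. It stood at 39.0, 43.8 and 12.5 CPM in Wnt1 and at 33.1, 33.8 and 12.1 CPM in control. The lowest library of each group was replicate 3 and the groups overlapped (0.27 ± 0.52; adjusted p = 0.71). Without both libraries it was called higher, at 0.30 on the TMM scale (adjusted p = 0.0203) and 0.74 with library totals (adjusted p = 0.000264). With the GC offset its log2 fold change was -0.24 (adjusted p = 0.436), opposite in sign to the other settings named here. The median of all tested genes was -0.138 with that offset.

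In the class III PI3-kinase complexes 2 of 6 genes fell and none rose with TMM, beside backgrounds of 18.7% and 22.4%. With library totals 0 were called lower and 1 higher, beside backgrounds of 8.92% and 44.0%. Pik3c3, the lipid kinase VPS34, was measured at 25.8, 28.8 and 27.7 CPM in Wnt1 and 36.4, 37.1 and 35.2 CPM in control, a narrow range in each group with no overlap (-0.40 ± 0.12; adjusted p = 0.0289). Pik3r4, its VPS15 partner, was at 32.6, 34.3 and 39.5 CPM in Wnt1 and at 45.3, 49.98 and 43.8 CPM in control (-0.39 ± 0.13; adjusted p = 0.0487). Each of these calls was lost when any 1 library other than Wnt1 replicate 3 was left out, at adjusted p between 0.0578 and 0.187 over both genes. Becn1, the scaffold of both complexes, had non-overlapping groups of 82.5, 79.6 and 88.6 CPM in Wnt1 and 103, 98.5 and 105 CPM in control but missed the threshold (-0.29 ± 0.11; adjusted p = 0.0769). Atg14, which directs the kinase to autophagosome formation (-0.37 ± 0.14; adjusted p = 0.0713), and Ambra1, a Beclin-binding scaffold (-0.32 ± 0.15; adjusted p = 0.116), likewise missed it without overlap. With library totals the groups of Becn1 also did not overlap but lay the other way, higher with Wnt1 (0.13, edgeR adjusted p = 0.279). Those of Atg14 and Ambra1 overlapped on that scale. Uvrag, the subunit of the endosomal complex, was at -0.08 ± 0.12 (adjusted p = 0.611) with TMM and was called higher with library totals (0.34, adjusted p = 0.0321), below the median shift of all genes on that scale.

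Among the lipid supply and PI3P-reading genes 4 of 7 fell and none rose with TMM, beside backgrounds of 18.7% and 22.4%. With library totals 1 was called lower and 2 higher, beside backgrounds of 8.92% and 44.0%. The 2 were Vmp1 and Atg9b, and Atg9b passed the filter through the Wnt1 libraries alone. Wipi2 (chromosome 5, 142627698 to 142670588), the PI3P reader that recruits ATG16L1 to the growing membrane, was at 77.4, 79.9 and 96.0 CPM in Wnt1 libraries and at 150, 155 and 170 CPM in control libraries. Every control library lay well above every Wnt1 library (-0.91 ± 0.13; adjusted p = 0.00126), and Wipi2 was called lower in all 20 alternatives run, among them library totals (-0.49, adjusted p = 0.0091). Wipi1, a paralog with the same lipid preference, was at 28.3, 27.8 and 24.1 CPM in Wnt1 and at 43.1, 47.2 and 33.8 CPM in control (-0.63 ± 0.16; adjusted p = 0.0152). Control replicate 3 was the lowest of its group but above all Wnt1 libraries, and the call was lost without control replicate 1 (adjusted p = 0.0887) or 2 (0.113).

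Atg9a, the lipid scramblase of ATG9 vesicles, fell to 59.3 ± 9.25 CPM with Wnt1, against 94.0 ± 5.32 CPM in control (SD, n = 3 libraries each; -0.66 ± 0.15; adjusted p = 0.00778). Atg2a, a bridge for lipid transfer from the endoplasmic reticulum, fell to 43.3 ± 7.7 CPM, against 62.2 ± 1.87 CPM in control (-0.52 ± 0.15; adjusted p = 0.0261). The Atg2a call was lost when any 1 library other than Wnt1 replicate 3 was left out (adjusted p between 0.0568 and 0.0923), while the Atg9a call held in each of these 6 settings. Atg2b was not called (-0.22 ± 0.12; adjusted p = 0.185).

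Vmp1 and Atg9b had log2 fold changes above 0, unlike the rest of this group. Vmp1, a scramblase of the endoplasmic reticulum that acts with ATG2, was at 157, 153 and 149 CPM in Wnt1 and at 117, 118 and 135 CPM in control. All Wnt1 libraries lay above all control libraries, yet the TMM call was missed (0.32 ± 0.12; adjusted p = 0.0646). Vmp1 was called higher with library totals (0.74, adjusted p = 0.00107) and on the TMM scale without replicate 3 of both groups (0.40, adjusted p = 0.00276), whereas with the GC offset it was at 0.01 (adjusted p = 0.962). The median of all tested genes was -0.138 with that offset and 0.05 with TMM. Atg9b, the paralog of Atg9a, had only 15, 16 and 17 counts in Wnt1 and 8, 3 and 4 in control. Its log2 fold change was 1.29 ± 0.46 with TMM (adjusted p = 0.0528) and 1.70 with library totals (called higher, adjusted p = 0.0157). At this depth a few reads move the value.

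**Figure D3:**
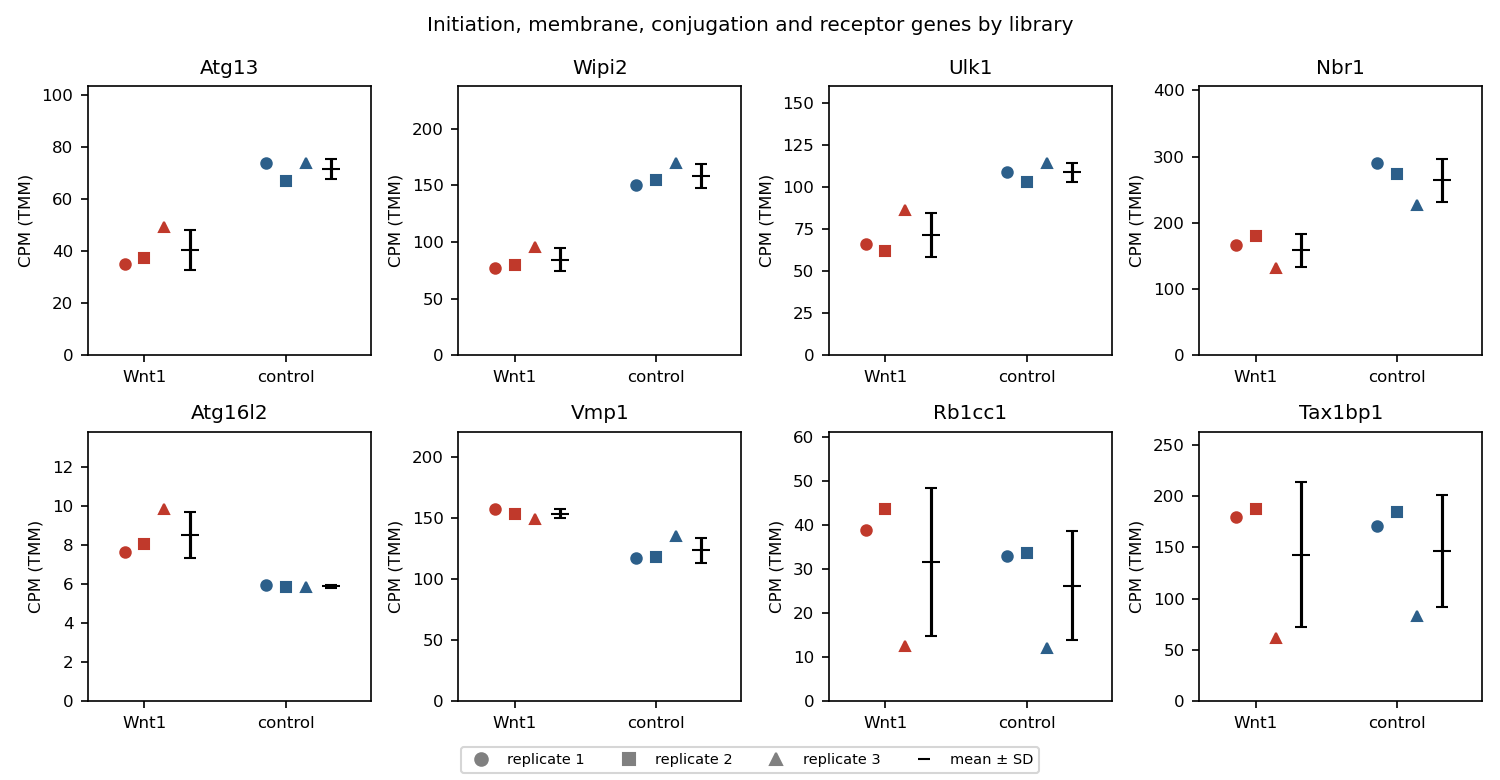
TMM-scaled CPM of 8 autophagy genes in each library, Wnt1 left of control, with marker shape for the replicate and bars for the mean ± SD of 3 libraries. Atg13, Wipi2, Ulk1 and Nbr1 are lower in every Wnt1 library than in any control library, Atg16l2 and Vmp1 higher, and Rb1cc1 and Tax1bp1 split by replicate 3 (12.5 and 61.3 CPM in Wnt1, 12.1 and 83.6 CPM in control).

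Of the 7 conjugation genes 1 fell and 1 rose on the TMM scale, near the backgrounds of 18.7% and 22.4%. With library totals 0 were called lower and 2 higher, beside backgrounds of 8.92% and 44.0%. Atg12, the ubiquitin-like protein joined to ATG5, was at 56.7, 52.5 and 48.6 CPM in Wnt1 and at 71.9, 71.7 and 67.4 CPM in control (-0.42 ± 0.12; adjusted p = 0.0252). It was called in 9 of 20 alternatives and stood at 0.00 with library totals. Atg16l2 (chromosome 7, 101263034 to 101302251), a paralog of the membrane-targeting subunit ATG16L1, was at 7.67, 8.04 and 9.86 CPM in Wnt1 and at 5.98, 5.85 and 5.84 CPM in control. The 3 control libraries were nearly level, and all Wnt1 libraries lay above them (0.53 ± 0.17; adjusted p = 0.0397; with library totals 0.95, adjusted p = 0.00223). The call was missed by DESeq2 (adjusted p = 0.0551) and when control replicate 1 or 2 or Wnt1 replicate 1 or 2 was left out (adjusted p between 0.0572 and 0.0769), at log2 fold changes of 0.57 to 0.60.

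Atg7, the activating enzyme of both systems, averaged 30.04 ± 5.05 CPM with Wnt1 and 30.6 ± 1.87 CPM in control, a difference within the spread of the libraries (-0.03 ± 0.15; adjusted p = 0.91). Library totals put it at 0.39 (called higher, adjusted p = 0.0443), again under the shift of all genes on that scale. Atg5 (-0.22 ± 0.18; adjusted p = 0.365), the ATG8-conjugating enzyme Atg3 (-0.25 ± 0.16; 0.27) and Atg16l1 (-0.22 ± 0.13; 0.224) were not called. Atg10, the ATG12-conjugating enzyme, averaged 5.74 ± 1.41 CPM with Wnt1 and 8.48 ± 1.22 CPM in control (SD, n = 3 libraries each), with overlapping groups, and missed the threshold (-0.56 ± 0.23; adjusted p = 0.0823).

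Of the ATG4 proteases, which trim new ATG8 proteins and later free them from the membrane, Atg4d alone was called. It was at 39.8, 32.5 and 47.2 CPM in Wnt1 and at 66.9, 67.6 and 71.1 CPM in control, without overlap (-0.78 ± 0.16; adjusted p = 0.00531; with library totals -0.37, adjusted p = 0.0547). Atg4a (-0.06 ± 0.21; adjusted p = 0.837), Atg4b (-0.25 ± 0.17; 0.27) and Atg4c (-0.38 ± 0.19; 0.156) were not. With TMM 1 of 4 was thus lower and none higher, near the background of 18.7% lower and beside 22.4% higher. With library totals none of the 4 was called. Atg4c had no overlap between groups on the TMM scale, at 14.8, 14.4 and 9.86 CPM in Wnt1 and at 19.0, 16.2 and 15.7 CPM in control, and Atg4a and Atg4b overlapped.

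The ATG8 genes held the largest change. Each encodes a small ubiquitin-like protein that ATG4 cuts after a glycine near its end, the residue that is then joined to phosphatidylethanolamine. The ends of the coding sequences, from the GENCODE M21 transcripts of GRCm38, are shown 5′ to 3′ from 8 codons before that glycine codon, in capitals, through the stop codon. They show how closely Gabarapl1 resembles Gabarap at this end. These short ends do not by themselves part the 5 genes into LC3 and GABARAP types, since Gabarapl2 and Map1lc3a end in the same 3 codons.
Gabarapl1: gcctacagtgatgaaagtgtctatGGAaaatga
Gabarap: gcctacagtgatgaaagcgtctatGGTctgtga
Gabarapl2: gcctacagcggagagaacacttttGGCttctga
Map1lc3a: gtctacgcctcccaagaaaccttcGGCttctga
Map1lc3b: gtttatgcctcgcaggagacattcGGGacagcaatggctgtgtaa
Map1lc3b carries 5 codons between the glycine codon and the stop, and the other 4 genes carry 1. Over aligned coding bases, Gabarapl1 and Gabarap were 74.9% identical and Map1lc3a and Map1lc3b 76.5%, while the other pairs were 53.4% to 63.8% identical. No stretch of 50 bases was shared exactly between the annotated transcripts of any pair. Matches with mismatches, or to other transcripts, were not searched, so how well the counts of these genes are told apart was not tested.

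On the TMM scale 4 of 5 ATG8 genes fell and none rose, beside backgrounds of 18.7% and 22.4%. With library totals 1 was called lower and 0 higher, beside backgrounds of 8.92% and 44.0%. Gabarapl1 (chromosome 6, 129533160 to 129542346, GRCm38) was at 244, 232 and 292 CPM in Wnt1 libraries and at 940, 763 and 980.2 CPM in control libraries. The lowest control library lay above every Wnt1 library, the fitted level was 0.287 times that of control (-1.80 ± 0.16; adjusted p = 0.000128), and Gabarapl1 was called lower in all 20 alternatives (adjusted p up to 0.00109). With library totals its log2 fold change was -1.39 (adjusted p = 0.000217). Map1lc3a, the LC3A gene, was at 49.7, 53.0 and 71.5 CPM in Wnt1 and at 91.6, 102.5 and 117 CPM in control (-0.83 ± 0.18; adjusted p = 0.00649; with library totals -0.42, adjusted p = 0.0549).

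Map1lc3b, the LC3B gene whose lipid-bound product is the usual marker of autophagosomes, fell more narrowly. It was at 160, 169 and 216 CPM in Wnt1 and at 245, 228 and 270 CPM in control, with a narrow gap between the highest Wnt1 library and the lowest control library (-0.45 ± 0.15; adjusted p = 0.0479). Gabarapl2 was at 69.7, 71.9 and 94.5 CPM in Wnt1 and at 107, 105 and 124 CPM in control (-0.51 ± 0.16; adjusted p = 0.0341). Both calls were lost with library totals, at -0.03 (adjusted p = 0.867) and -0.09 (0.601), and when any 1 library other than Wnt1 replicate 3 was left out. Gabarap was at 339, 332 and 435 CPM in Wnt1 and at 401, 415.5 and 476 CPM in control, where the groups overlapped (-0.23 ± 0.15; adjusted p = 0.272).

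Per unit of transcript length, the order of the ATG8 genes changed. On the authors' FPKM scale, fragments scaled by transcript length and library total, Gabarapl1 was at 188, 167 and 211 in Wnt1 libraries and at 507, 417 and 551 in control libraries, and Gabarap was at 294, 298 and 363 in Wnt1 and at 265, 272 and 301 in control. In mean FPKM over the 37 genes, Gabarap was highest in Wnt1 and Gabarapl1 in control, and Atg9b was lowest in both. Gabarap was above Gabarapl1 in each Wnt1 library and below it in each control library. Of the summed FPKM of the 5 genes, Gabarapl1 took 27.6%, 24.8% and 25.5% in Wnt1 libraries and 50.3%, 45.3% and 49.4% in control libraries. Gabarap took 43.8% ± 0.509 in Wnt1 and 27.6% ± 1.69 in control (SD, n = 3 libraries each). Map1lc3b took 14.6% ± 0.3 in Wnt1 and 10.5% ± 0.412 in control, and Gabarapl2 took 7.43% ± 0.308 in Wnt1 and 5.68% ± 0.164 in control. Map1lc3a took 8.25% ± 0.569 in Wnt1 and 7.93% ± 0.739 in control.

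These shares do not depend on how libraries are scaled against each other. They are parts of the same sum, so a lower share of Gabarapl1 raises the other shares, and the tests that follow are not separate results. In an exact two-sided permutation test of 3 against 3 libraries the shares of all but Map1lc3a gave p = 0.1, the smallest that this design allows (0.125 after adjustment over 5 genes), and Map1lc3a gave 0.6. The summed FPKM of the 5 genes was 727 ± 86.7 in Wnt1 and 1015 ± 97.1 in control, and without Gabarapl1 it was 539 ± 68 in Wnt1 and 524 ± 35.7 in control. In mean FPKM, Map1lc3b was at 105.7 in Wnt1 and 106.3 in control, and Gabarapl2 at 54.1 in Wnt1 and 57.6 in control. Map1lc3a was at 60.2 in Wnt1 and 80.4 in control, and Gabarap alone was higher, at 318 in Wnt1 and 279 in control. The FPKM scale carries no factor for composition.

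**Figure D4:**
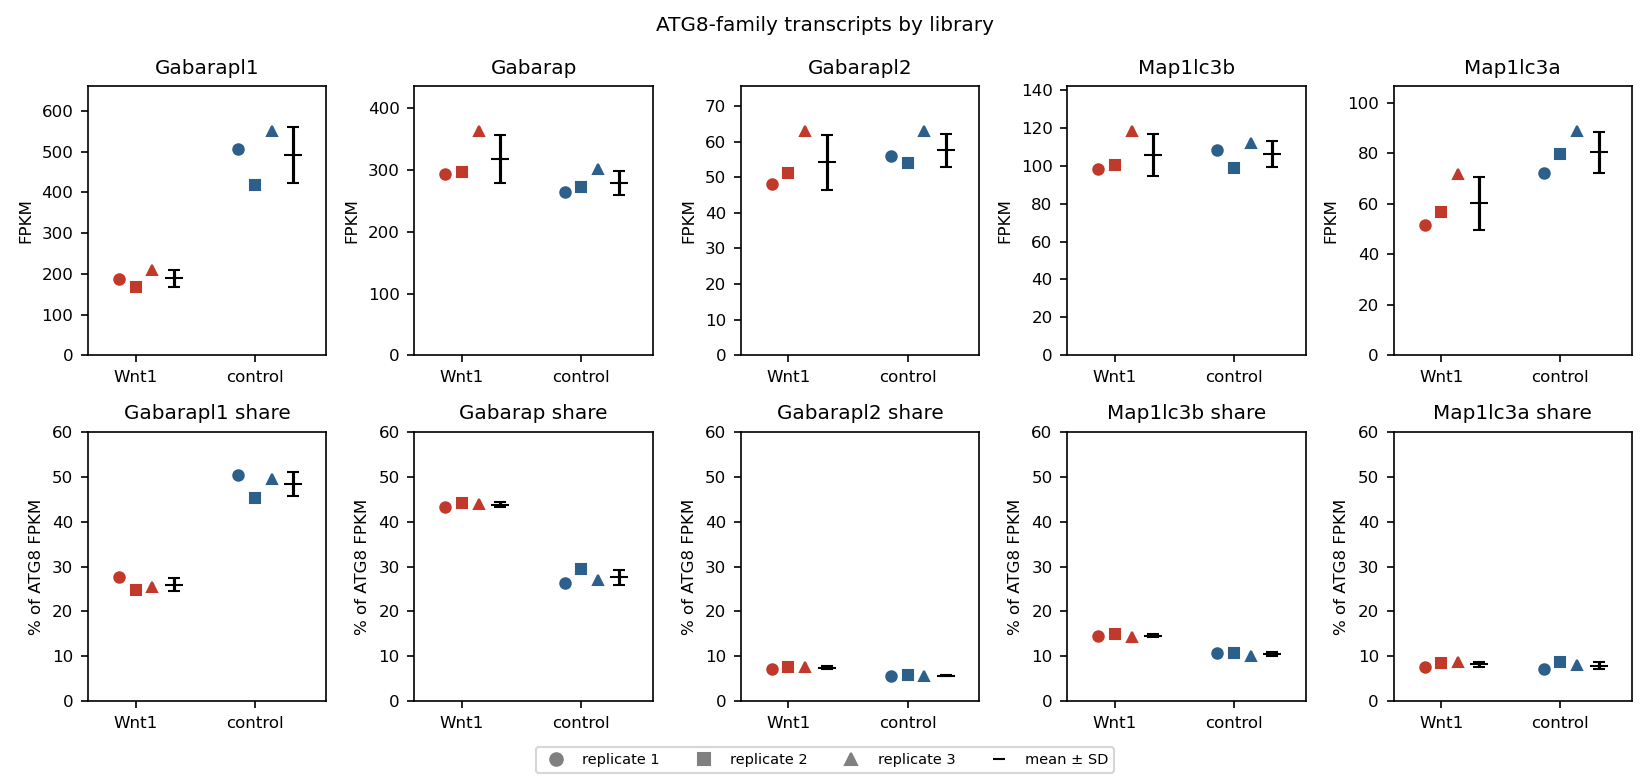
FPKM of the 5 ATG8-family genes in each library (top) and their share of the summed ATG8 FPKM (bottom), Wnt1 left of control, with marker shape for the replicate and bars for the mean ± SD of 3 libraries. Gabarapl1 lies at 167 to 211 FPKM in Wnt1 and 417 to 551 FPKM in control, and its share is 26.0% in Wnt1 and 48.3% in control.

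Of the cargo receptors, Nbr1, which binds ubiquitin-tagged cargo, was at 166, 179.5 and 131 CPM in Wnt1 and at 290, 274 and 227.5 CPM in control. No Wnt1 library reached a control library (-0.73 ± 0.16; adjusted p = 0.00813), but the call was lost with library totals (-0.31, adjusted p = 0.165) and without control replicate 1 (0.0696) or 2 (0.0659). Tax1bp1, another ubiquitin-binding receptor, was at 180, 188 and 61.3 CPM in Wnt1 and at 171, 185 and 83.6 CPM in control. As for Rb1cc1, replicate 3 was the low library of each group and the groups overlapped (-0.04 ± 0.45; adjusted p = 0.959). Without both libraries Tax1bp1 was at 0.04 on the TMM scale (adjusted p = 0.688). With library totals it was then called higher, at 0.48 (adjusted p = 0.00136). Epg5, a tether between autophagosomes and late endosomes or lysosomes, fell to 35.6 ± 2.71 CPM with Wnt1, against 46.3 ± 2.17 CPM in control (SD, n = 3 libraries each; -0.38 ± 0.12; adjusted p = 0.0404), and was at 0.04 with library totals (adjusted p = 0.769). The Epg5 call was lost when any 1 library other than Wnt1 replicate 3 was left out, with adjusted p between 0.0903 and 0.153.

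Ratios between paralogs within a library offer a comparison free of the scaling choice. For 10 pairs the log2 ratio of FPKM was compared between groups by an exact two-sided permutation test, in which 3 against 3 libraries cannot go below p = 0.1. The groups did not overlap for 5 pairs, each at an exact permutation p = 0.1 (adjusted over 10 pairs 0.2), and 1 of these, Atg9a over Atg9b, rests on the low counts of Atg9b. Gabarapl1 over Gabarap was at -0.65, -0.83 and -0.79 in Wnt1 and at 0.94, 0.62 and 0.87 in control, a difference of -1.56 on the log2 scale, and between -1.66 and -1.50 with any 1 library left out. Gabarapl2 over Gabarap differed by -0.28, with an SD of 0.0445 in Wnt1 and 0.0458 in control (n = 3 libraries each). Map1lc3a over Map1lc3b differed by -0.42.

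The other pairs without overlap were in the membrane and conjugation groups. Atg16l1 over Atg16l2 was at 1.13, 1.45 and 1.35 in Wnt1 and at 1.88, 2.03 and 1.93 in control, so the 2 paralogs came closer with Wnt1, by 0.64 on the log2 scale. Atg9a over Atg9b differed by -2.08, a value that 3 to 8 counts of Atg9b in the control libraries set. Ulk1 over Ulk2 (-0.38), Atg2a over Atg2b (-0.27), Wipi1 over Wipi2 (0.36), Atg4a over Atg4b (0.37) and Atg4c over Atg4d (0.38) overlapped between groups, with exact p between 0.2 and 0.5. In these 5 pairs replicate 3 was the highest or lowest library of each group, and leaving out 1 library moved the difference for Ulk1 over Ulk2 between -0.73 and -0.15.

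**Figure D5:**
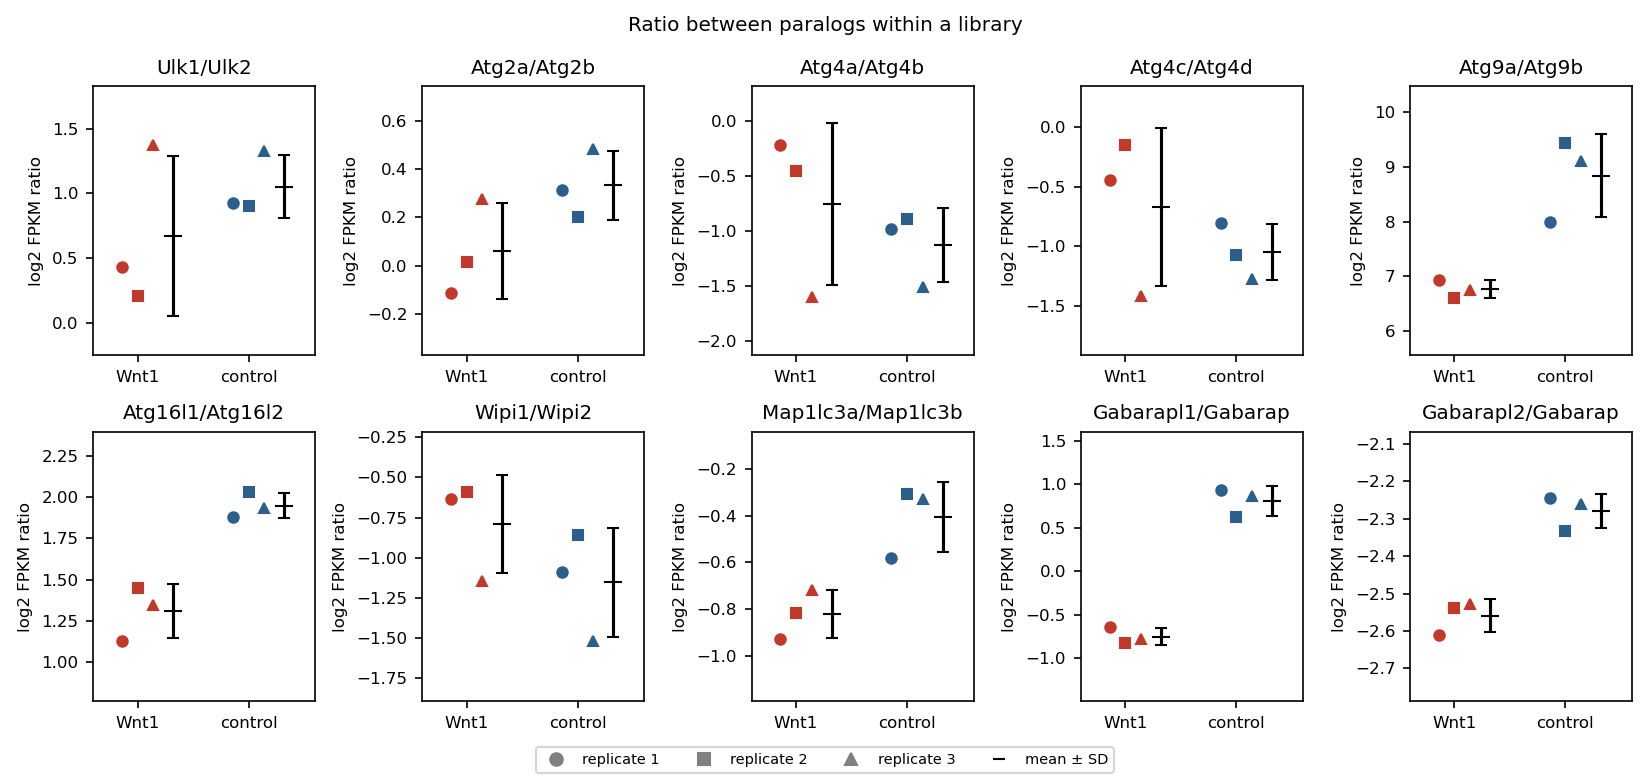
Log2 ratio of FPKM between paralogs in each library, Wnt1 left of control, with marker shape for the replicate and bars for the mean ± SD of 3 libraries. The ratio of Gabarapl1 to Gabarap is below 0 in each Wnt1 library (mean -0.75) and above 0 in each control library (mean 0.81), whereas the ratio of Ulk1 to Ulk2 follows replicate 3 in both groups.

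Promoter windows, from 250 bases before to 50 after a start site, were matched by symbol in RefSeq (GRCm38.p6) for 30 of the 37 genes, as 36 windows. They were searched on both strands for GTCACGTG, the core of the CLEAR element bound by the lysosomal regulator TFEB, and for TGACGTCA, the cyclic-AMP response element that ATF-family factors bind. The first was found in 3 of 36 windows (8.33%, against 2.25% of all 32851 windows) and the second in 2 (5.56%, against 1.79%). They are shown 5′ to 3′ on the gene's strand with the motif in capitals. Atg16l2 was the one gene that rose on both scales, and Atg3, Atg7 and Atg14 have a window with the lysosomal element.
Atg16l2 chr7:101302088-101302117 (minus strand): tgctgccgcccTGACGTCAtggagtccccg
Atg5 chr10:44268327-44268356 (plus strand): cgtggtcttggTGACGTCAtctccgggcgc
Atg3 chr16:45158722-45158751 (plus strand): ggcctccttttGTCACGTGtcctgggagag
Atg3 chr16:45158745-45158774 (plus strand): gggagagtcgaGTCACGTGaggccttaggt
Atg7 chr6:114670951-114670980 (plus strand): ccatattggtgGTCACGTGtgcagtaagtg
Atg14 chr14:47568417-47568446 (minus strand): aaacaaaatccCACGTGACtggccctgagc
The windows of Atg7 and Atg14 lie inside the gene spans of GENCODE M21, away from their outer starts. Those starts are at 114643097 on chromosome 6 for Atg7 and at 47570649 on chromosome 14 for Atg14 (minus strand). None of Atg3, Atg5, Atg7 and Atg14 was called on the TMM scale, and Atg16l2 rose. The E-box CACGTG, which lies within GTCACGTG, was in 4 windows (11.1%, against 7.15%), those of Atg3, Atg5, Atg7 and Atg14. CTTTGAT and CTTTGAA, cores of TCF/LEF sites, were in 2 windows (5.56%, against 3.73%), of Ambra1 and Atg4a, and in 1 (2.78%, against 5.14%), of Gabarapl1. TGACGCAA, TGANTCA (AP-1) and TGTTTAC (forkhead) were in none of the 36 windows, and in 0.49%, 7.81% and 3.65% of all windows. The window of Gabarapl1, the gene with the largest fall, is chr6:129532942-129533241 on the plus strand, with CTTTGAA in capitals, 212 bases before the start site.
Gabarapl1: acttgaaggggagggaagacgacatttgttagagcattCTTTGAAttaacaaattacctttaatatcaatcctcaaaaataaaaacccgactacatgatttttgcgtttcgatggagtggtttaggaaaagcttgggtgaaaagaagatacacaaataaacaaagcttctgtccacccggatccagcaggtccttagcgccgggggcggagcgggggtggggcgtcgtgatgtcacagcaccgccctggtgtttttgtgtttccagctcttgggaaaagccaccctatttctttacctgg
A match is a description of these letters and not a bound site.

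Other genes of the pathway were counted in the same fit. Among 37 regulators in mTORC1, AMPK and TFEB signalling, 3 rose and 9 fell with TMM, where 22.4% and 18.7% of all tested genes did. With library totals 13 were called higher and 3 lower, where 44.0% and 8.92% of all genes were. Without replicate 3 of both groups 6 rose and 16 fell with TMM, where 32.0% and 30.4% of all tested genes did. Mtor, the kinase that restrains ULK1, fell to 126 ± 18.8 CPM with Wnt1, against 391 ± 41.4 CPM in control (SD, n = 3 libraries each; -1.63 ± 0.15; adjusted p = 0.000168), and was called lower with library totals (-1.21). Fnip2, a partner of folliculin, fell by 1.16 ± 0.13 (-0.74 with library totals, called), and Foxo1, a transcription factor of autophagy genes, by 0.72 ± 0.12 (-0.30 with library totals, adjusted p = 0.0616). Ddit4, a stress-induced inhibitor of mTORC1, rose by 1.41 ± 0.37, Prkab2, an AMPK subunit, by 0.76 ± 0.21, and Sesn3, a sestrin, by 0.75 ± 0.21, each also called with library totals.

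Of 12 other selective autophagy receptors 6 fell and none rose with TMM, and 2 were called in each direction with library totals, beside the same background shares. With replicate 3 of both groups left out, 9 fell and none rose with TMM, beside backgrounds of 30.4% and 32.0%. Sqstm1, the receptor p62, fell to 482 ± 87.5 CPM with Wnt1, against 780 ± 67.3 CPM in control (-0.69 ± 0.16; adjusted p = 0.0104; with library totals -0.28, adjusted p = 0.131). The endoplasmic reticulum receptors Tex264 (-0.95 ± 0.17; adjusted p = 0.00288) and Rtn3 (-0.69 ± 0.11; adjusted p = 0.00201) fell and were called lower with library totals as well. Of 13 further phagophore and PI3P factors 3 fell and none rose with TMM, and 1 was called lower and 3 higher with library totals. The lower counts are near the background shares of 18.7% and 8.92%. Leaving out replicate 3 of both groups, 6 fell and 2 rose with TMM, beside 30.4% and 32.0%. Wdr45, the WIPI4 gene and a relative of Wipi1 and Wipi2, was at 22.96 ± 3.05 CPM in Wnt1 and 49.8 ± 2.28 CPM in control (-1.12 ± 0.14; adjusted p = 0.00061; -0.70 with library totals, called), and the PI3P-binding Zfyve1 (-0.47 ± 0.12) and the kinase Dapk1 (-0.34 ± 0.11) fell with TMM only.

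Of 15 fusion factors found in the table, 1 rose and 3 fell with TMM, the falls being near the background of 18.7%. When replicate 3 of both groups was left out, 1 rose and 7 fell with TMM, beside 32.0% and 30.4%. With library totals edgeR called 4 higher and 0 lower, and 5 higher and 0 lower at an unadjusted p under 0.05, where 49.7% and 10.3% of all tested genes were. Rubcnl, a Rubicon relative, rose by 1.89 ± 0.34 on the log2 scale and was low in both groups, at 1.80 ± 0.542 CPM in Wnt1 and 0.483 ± 0.0636 CPM in control (adjusted p = 0.00308). Snap29, a fusion SNARE (-0.52 ± 0.12; adjusted p = 0.0106), Tecpr1, a tether (-0.55 ± 0.16; 0.026), and the late-endosomal GTPase gene Rab7 (-0.37 ± 0.11; 0.0328) fell with TMM and were not called with library totals, at -0.10, -0.13 and 0.05.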

How the data were processed

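Kidney RNA was extracted with Trizol, enriched on oligo(dT) beads and sequenced on an Illumina instrument, per the labels' protocols. The submitters' processing notes name RSEM, HISAT2, StringTie 1.3.1, Bowtie2 2.2.8 and fastp 0.18.0, with the mm10 build. The sources used here do not state their roles, the annotation or the use of strand, so genes that overlap cannot be told from their partners. The authors deposited an expected count per gene and library, of which 9.02% were not whole within 1e-06, and all were rounded. The authors also deposited FPKM values, scaled by length and library total. Expected counts were analysed with edgeR 4.0.16 in R 4.3.3 (filterByExpr, TMM, robust quasi-likelihood test, two-sided, Benjamini-Hochberg over 14432 genes, calls under 0.05). Standard errors derive from the F statistic, so they hold nothing beyond the p-value. CPM values carry TMM factors. Paralog ratios and shares used FPKM and exact permutation tests in scipy 1.17.1. Positions, GC content and transcripts came from GENCODE M21, matching 22128 of 22183 identifiers.

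Replicates are numbered in record order and pair nothing. The 37 genes, the other lists and the tests were chosen with earlier results of these data known. All 37 were named whatever their values, and from each other list the called genes with the 3 smallest p in each direction. Alternatives were other scalings and filters, DESeq2 1.42.0, limma 3.58.1 on log2(FPKM + 1) or log2(FPKM + 0.1) with FPKM of at least 1 in 3 libraries or no filter, voom with quality weights, leaving out each library or replicate 3 of both groups, and a GC offset. A covariate for replicate 3, and library totals without replicate 3, were added after seeing the data.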

Additional observations from a re-analysis of the deposited data

How the results depend on the processing

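With library totals, upper-quartile factors, limma on log2(FPKM + 1), limma on log2(FPKM + 0.1) and limma on log2(FPKM + 1) without a filter, the number of autophagy genes called lower, 16 with TMM, was 3, 9, 4, 4 and 2, and the number called higher, 1 with TMM, was 5, 3, 3, 3 and 4. Their median log2 fold change, -0.37 with TMM, was 0.0556, -0.26, 0.0415, 0.0478 and 0.0483. Of all tested genes 3239 were called higher and 2697 lower with TMM. With library totals 6348 were higher and 1288 lower, and with upper-quartile factors 3729 were higher and 2182 lower. With the 3 FPKM settings in the order above 5144, 5139 and 5949 were higher and 1238, 1234 and 1273 lower. FPKM and library totals carry no factor for composition, and the FPKM settings also change the model and, in part, the filter.

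The GC offset called 30 autophagy genes lower (median -0.50) and 5135 of all genes. Leaving out replicate 3 of both groups called 24 lower and 3 higher, with 4432 of all genes lower and 4664 higher. Voom called 24 lower and 3 higher, with 4435 of all genes lower and 4615 higher. The covariate called 25 lower and 3 higher, with 4270 of all genes lower and 4845 higher. Library totals without replicate 3 of both groups called 10 lower and 11 higher (median 0.0636), with 1898 of all genes lower and 8314 higher. DESeq2 called 16 autophagy genes lower and 0 higher (1 at an unadjusted p under 0.05, beside 25.4% of all genes), with 2993 of all genes lower and 3212 higher. The fit without a filter called 12 lower and 2 higher, with 2504 of 17987 genes lower and 3603 higher. With any 1 library left out, 7 to 21 were lower and 0 to 2 higher, the median ran from -0.37 to -0.23, and 2681 to 4165 of all genes were higher and 1797 to 3977 lower. The causes of these shifts were not tested.

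Genes called under one of the settings compared and of opposite sign under the other were, with library totals, Pik3c3 (0.0197), Pik3r4 (0.0314), Uvrag (0.34), Atg7 (0.39), Atg12 (0.00302) and Epg5 (0.0402). With log2(FPKM + 1), filtered or not, Pik3c3 (0.0172), Pik3r4 (0.0683), Uvrag (0.30) and Epg5 (0.0323) changed sign, and with log2(FPKM + 0.1) the same 4 were at 0.0186, 0.0746, 0.33 and 0.0391. With library totals and without replicate 3 of both groups Ulk2 (0.28), Pik3c3 (0.00135), Uvrag (0.33), Atg3 (0.29), Atg5 (0.27), Atg7 (0.30), Atg12 (0.0374), Atg4a (0.50), Tax1bp1 (0.48) and Epg5 (0.00164) were above 0. With any 1 library left out the 10 paralog ratios kept their sign, but Atg4a over Atg4b ran from 0.10 to 0.79, Atg4c over Atg4d from 0.12 to 0.75 and Ulk1 over Ulk2 from -0.73 to -0.15.

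No paired analysis was possible because replicate numbers follow the order of the records and the labels tie no Wnt1 library to a control library. With 3 libraries a group, exact tests cannot fall below 0.1, and counts of 3 to 17 limit Atg9b.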
